A study of Mus musculus with 6 samples.

Results

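The growth factor genes described here are the fibroblast growth factors (FGFs) and their receptors with the co-receptor Klb, the vascular endothelial growth factors (VEGFs) with placental growth factor and their receptors and neuropilins, the platelet-derived growth factor (PDGF) ligands, the angiopoietins and the angiopoietin-like (ANGPTL) proteins. The rule that picks them uses gene symbols and no measured value. The symbol patterns matched 54 of the 56884 gene identifiers in the tables, and 26 of the 54 reached 0.5 TPM, a gene's length-scaled share of the transcripts of a library, in at least 3 of the 6 libraries and were called expressed. A pair of matches are not growth factor genes: Fgfr1op2, which encodes a partner protein of an FGFR1 fusion, and the pseudogene Fgfr3-ps. Without them there were 52 members, of which 25 were expressed.

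All libraries came from an immortalized mouse line of stromal vascular fraction (SVF) cells, the non-adipocyte cells of subcutaneous white adipose tissue that include adipocyte precursors. The cells carried a retroviral vector and were selected with puromycin. The K382Q group overexpressed PPARγ2 with glutamine in place of the lysine K382, a mimic of the acetylated receptor, and the K382R group overexpressed PPARγ2 with arginine in its place, a mimic of the deacetylated receptor. Both groups were harvested on day 2 of beige adipocyte differentiation, in a medium with 500 µM isobutylmethylxanthine, 125 µM indomethacin, 2 µg/mL dexamethasone, 5 µg/mL insulin, 1 nM triiodothyronine and 0.5 µM rosiglitazone, an agonist of PPARγ. There were 3 libraries in each group, called biological replicates in the labels. Nothing in the labels tells whether they came from separate transductions, so the p-values measure the spread between these libraries. No library with wild-type PPARγ2 or an empty vector was analysed here, so each difference is between the mutants and has no reference level. The question was how far these growth factor genes differ between the acetylation mimic and the deacetylation mimic.

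The libraries held between 5.95 and 8.15 gigabases of aligned sequence, estimated from the deposited coverage and FPKM. Pparg, the overexpressed gene, was at 1333, 1164 and 1104 TPM in the K382Q libraries and at 1590, 1632 and 1612 TPM in the K382R libraries, so its level was lower in K382Q (log2 difference -0.43, standard error 0.06, adjusted p = 0.000977, limma). Reads from the vector and from the endogenous gene cannot be told apart in these tables. The adipocyte marker Fabp4 was the bulk of a marker list that summed to between 50351 and 54267 TPM in K382Q and between 40997 and 42295 TPM in K382R, with 4 of 8 tested markers called higher (50.0%, against 11.1% of all genes tested), 1 called lower (12.5%, against 36.9%), namely Adipoq at a log2 difference of -1.28, and Lep at 0 in every library. A progenitor list led by Ly6a summed to between 560.5 and 606 TPM in K382Q and between 923 and 959 TPM in K382R. All 4 tested progenitor markers were lower in K382Q, as were 36.9% of all genes, and Dpp4 and Lum were at 0. Of the adipocyte markers, Plin1, Plin4 and Lipe were not called. The part of both lists in the differences below was not tested. In bulk RNA, fewer cells of a type and less RNA per cell cannot be told apart. Of 10 endothelial markers 2 were expressed, Egfl7 at 12.5 to 17.9 TPM (called lower, log2 difference -0.31) and Pecam1 at 1.50 to 2.08 TPM (not called), with Emcn, Erg and Sox17 at 0 in every library and Cdh5 no higher than 0.0903 TPM. Only Cd68 of 8 macrophage markers was expressed, with Adgre1, Tyrobp and C1qa at 0.

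These families are secreted signals and the cell surface proteins that receive them. FGFs bind receptor tyrosine kinases together with heparan sulfate or, for the endocrine FGFs, with a Klotho protein, and VEGFs act on receptors of endothelial cells, with neuropilins as co-receptors. PDGFs act on mesenchymal cells, angiopoietins on the endothelial Tie receptors, and several ANGPTL proteins hold back lipoprotein lipase and so set how much circulating fat a tissue takes up. In adipose tissue, adipocytes and their precursors release VEGFs that feed the growth of capillaries, FGF21 is produced during thermogenic activation, and Angptl4 is a well-known target gene of PPARs.

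Of the 26 expressed matches, Fgfr1op2 included, 7 were higher in K382Q, 11 were lower and 8 did not pass the test (limma on log2(TPM + 0.5), Benjamini-Hochberg adjusted p below 0.05 over the 15426 genes tested). The background in this comparison was high: 48.1% of all genes tested passed, with 11.1% higher and 36.9% lower, against 69.2%, 26.9% and 42.3% of the expressed matches. Without Fgfr1op2, which did not pass, 72.0% of the 25 expressed members passed the test. With a fold change above 2 as a further condition, 6 members were differentially expressed genes (DEGs), namely Pgf, Fgf1 and Fgfr2 on the higher side (1.27% of all genes tested) and Fgf7, Vegfc and Angpt4 on the lower side (2.61%), where 3.88% of all genes were DEGs. With a pseudocount of 1, and also with FPKM, 2 member DEGs were left in place of 6, Fgf7 and Pgf. In 18 expressed members, or 69.2%, the TPM of the groups did not overlap, against 57.0% of all genes tested. A pair of these, Fgf1 and Angpt4, reached the expression threshold only in the group where they were high, so they had to differ, and Pgf reached it in only 1 K382R library. Without these 3 genes, 23 of the 26 remained, of which 5 were higher (21.7%), 10 lower (43.5%), 3 DEGs and 15 without overlap (65.2%). Such genes were not taken out of the shares over all genes, so these trimmed shares have no matching background. The median log2 difference was -0.04 over the expressed members and -0.14 over all genes tested. Median-ratio scaling of the TPM moved the median of all genes from -0.14 to 0.0032, and the split of called members then became 10 higher and 10 lower in place of 7 and 11. Over all genes the split became 3057 higher and 3153 lower in place of 1717 and 5698.

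**Figure D1:**
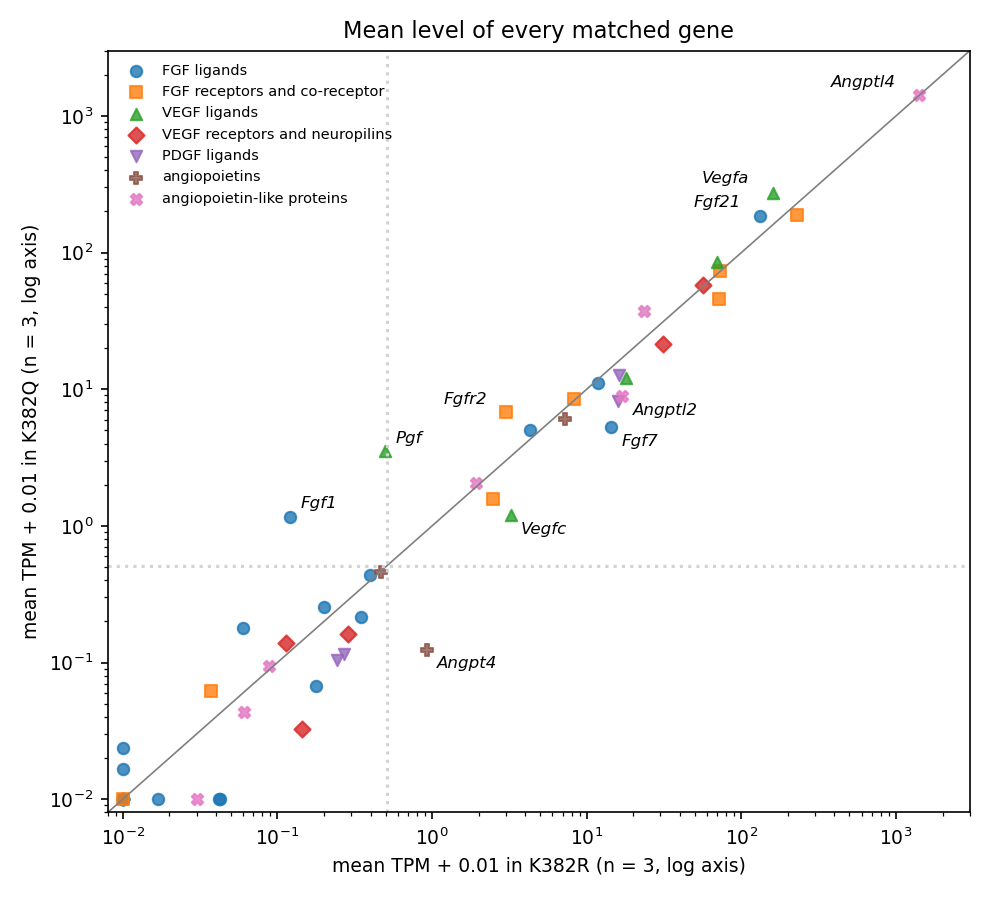
Mean TPM (n = 3) of each matched gene in K382R (horizontal) and K382Q (vertical) on log axes, with a small constant added, marker and colour for the family, a diagonal at equal levels and dotted lines at 0.5 TPM. Angptl4 sits far above the other members in both groups at about 1400 TPM and lies on the diagonal, Pgf and Fgf1 stand above it, and Fgf7, Vegfc and Angpt4 below it.

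The VEGF ligands moved in opposite directions within the family. All 5 were expressed and all 5 passed the test, which 48.1% of all genes did: Vegfa, Vegfb and Pgf were higher in K382Q, and Vegfc and Vegfd were lower. The first 3 encode ligands of VEGFR1, and VEGF-A also binds VEGFR2, the main driver of blood vessel growth. VEGF-C and VEGF-D are ligands of VEGFR3 and are best known for growth of lymphatic vessels. Summed over the 5 genes, the level was between 353 and 390.2 TPM in K382Q and between 245.8 and 259 TPM in K382R.

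Pgf (ENSMUSG00000004791.8, chr12:85213409-85224564, minus strand, GRCm39) encodes placental growth factor and showed the largest fitted difference among the expressed members. It was at 3.76, 2.95 and 3.88 TPM in the K382Q libraries and at 0.402, 0.485 and 0.572 TPM in the K382R libraries. Every K382Q library was far above every K382R library, and of the K382R libraries only replicate 3 reached the expression threshold, so Pgf too passed it through its high group. The mean was 3.53 ± 0.504 TPM (SD, n = 3) against 0.487 ± 0.0847 TPM (SD, n = 3), a ratio of 7.25. The ratio of means was larger for Fgf1 (10.4, K382Q over K382R) and for Angpt4 (7.96, K382R over K382Q). For Pgf, the coverage and fit were as follows. On the log2(TPM + 0.5) scale, which understates the change of a low gene, the difference was 2.03 (standard error 0.16, adjusted p = 3.66e-05, limma). The deposited read coverage of Pgf was between 5.11 and 5.57 in K382Q and between 0.869 and 1.03 in K382R. Over the alternative settings the log2 difference ranged from 1.50 to 2.63.

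Vegfa (ENSMUSG00000023951.19, chr17:46327919-46343295, minus strand) was the most abundant VEGF ligand. Its level was 289, 271 and 254 TPM in K382Q and 164, 156 and 161 TPM in K382R. The groups did not overlap, and the lowest K382Q library was well above the highest K382R library. The means of 271 ± 17.5 and 160.2 ± 4.12 TPM (SD, n = 3 each) differed 1.69-fold, with a log2 difference of 0.76 (standard error 0.05, adjusted p = 1.47e-05, limma).

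Vegfb (ENSMUSG00000024962.14, chr19:6959841-6965019, minus strand), a VEGFR1 ligand abundant in tissues with high oxidative metabolism, was at 85.4, 89.1 and 80.3 TPM in K382Q and at 73.8, 70.8 and 63.5 TPM in K382R. The separation was narrow, and the log2 difference was 0.29 (standard error 0.06, adjusted p = 0.00625, limma).

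Vegfc (ENSMUSG00000031520.7, chr8:54530641-54640131, plus strand) was at 1.37, 0.925 and 1.26 TPM in K382Q and at 2.98, 3.49 and 3.18 TPM in K382R. All K382Q libraries lay below all K382R libraries, and the mean in K382R was 2.72 times that in K382Q (log2 difference -1.15, standard error 0.15, adjusted p = 0.000462, limma). The fold change of Vegfc was below 2 with a pseudocount of 1 (log2 difference -0.95) and with FPKM (-0.83). Vegfd (ENSMUSG00000031380.11, chrX:163156374-163185646, plus strand) was at 10.8, 11.7 and 13.7 TPM in K382Q and at 18.2, 17.9 and 18.0 TPM in K382R. Its K382R libraries were almost equal, while the K382Q libraries were spread more widely below them (log2 difference -0.57, standard error 0.09, adjusted p = 0.00101, limma).

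**Figure D2:**
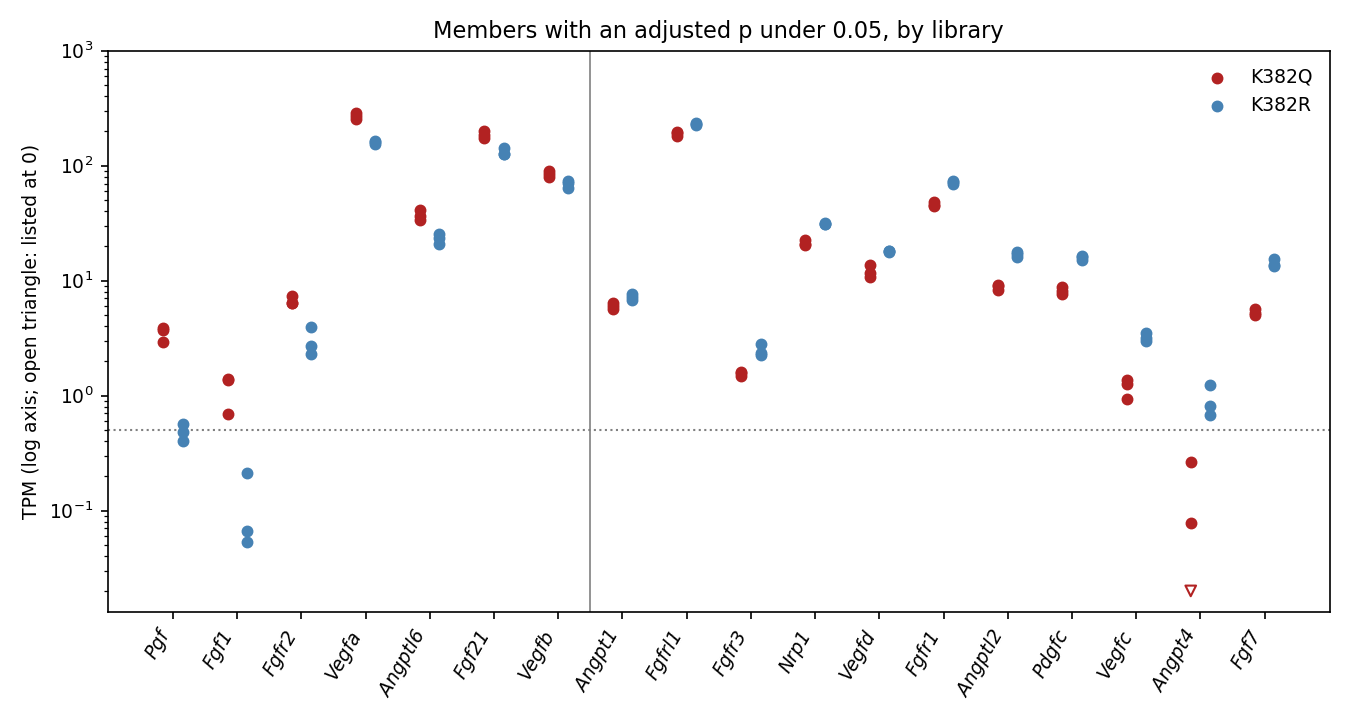
TPM of the 18 called members on a log axis, 1 point per library (red K382Q, blue K382R), with an open triangle for a value listed at 0, a dotted line at 0.5 TPM and a vertical line between members called higher (left) and lower (right) in K382Q. For Pgf the K382Q points lie between 2.95 and 3.88 TPM and the K382R points between 0.402 and 0.572 TPM, while for Angpt1 the groups nearly touch.

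The VEGF receptor tyrosine kinases themselves were scarcely detected. Flt1, which encodes VEGFR1, was at most 0.198 TPM, Kdr, which encodes VEGFR2, at most 0.165 TPM, and Flt4, which encodes VEGFR3, at most 0.314 TPM. The neuropilins, which also serve as receptors of class 3 semaphorins, were expressed. Nrp1 (ENSMUSG00000025810.10, chr8:129085085-129229844, plus strand) was at 21.0, 20.4 and 22.7 TPM in K382Q and at 31.0, 31.2 and 31.7 TPM in K382R. The groups were separated by a wide gap, and Nrp1 was lower in K382Q (log2 difference -0.54, standard error 0.05, adjusted p = 0.000101, limma).

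Nrp2 (ENSMUSG00000025969.16, chr1:62742444-62857854, plus strand) overlapped between the groups, at 58.5, 57.4 and 58.9 TPM in K382Q and at 55.7, 59.2 and 55.2 TPM in K382R. Its log2 difference was 0.04 (95% interval -0.05 to 0.13, adjusted p = 0.444, limma), and with FPKM, median-ratio scaling or quantile normalization it was called higher, at 0.12 to 0.20. In a list of 17 neuropilin ligands, plexins and antiangiogenic proteins, 15 genes were tested, 2 were higher in K382Q (13.3%, against 11.1% of all genes) and 8 lower (53.3%, against 36.9%), with a median of -0.34. The thrombospondins, secreted inhibitors of vessel growth, led the lower ones: Thbs2 was at 69.7, 69.3 and 69.4 TPM in K382Q and at 248, 241 and 254 TPM in K382R (log2 difference -1.83, adjusted p = 1.99e-07, limma), and Thbs1 averaged 3.32 and 11.0 TPM (log2 difference -1.59, adjusted p = 3.48e-06, limma). Of the class 3 semaphorins, guidance cues that signal through plexins, most of them with neuropilins, Sema3e (log2 difference -0.98), Sema3a (log2 difference -0.92) and Sema3c (log2 difference -0.34) were lower, and Sema3g (log2 difference 0.60) and Sema3f (log2 difference 0.48) were higher.

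Among 22 FGF ligand genes, 5 were expressed: Fgf21 and Fgf1 were higher in K382Q, Fgf7 was lower, and Fgf10 and Fgf2 did not pass the test. Summed over all 22, the FGF level was between 199 and 221 TPM in K382Q and between 157 and 174 TPM in K382R, most of it Fgf21.

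Fgf21 (ENSMUSG00000030827.6, chr7:45263310-45264914, minus strand), the endocrine FGF that acts through FGFR1 and the co-receptor Klb, was at 183, 199 and 175 TPM in K382Q and at 126, 142 and 127 TPM in K382R. Each K382Q library was above each K382R library. The means were 186 ± 12.6 and 132 ± 8.83 TPM (SD, n = 3 each), 1.41-fold apart, with a log2 difference of 0.49 (standard error 0.06, adjusted p = 0.000406, limma).

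Fgf7 (ENSMUSG00000027208.15, chr2:125876578-125933105, plus strand), the keratinocyte growth factor that mesenchymal cells release to act on the epithelial form of FGFR2, had the lowest log2 difference in the fit, below that of Angpt4, although Angpt4 was lower with a pseudocount of 0.1, with scaled coverage and without K382Q replicate 3. It was at 5.21, 5.61 and 4.98 TPM in K382Q and at 13.5, 13.8 and 15.5 TPM in K382R. The groups were far apart, and the K382R mean was 2.71 times the K382Q mean (log2 difference -1.36, standard error 0.08, adjusted p = 1.11e-05, limma). Fgf10 (ENSMUSG00000021732.15, chr13:118806327-118928651, plus strand), a close relative of Fgf7 with the same receptor and a known factor of preadipocyte growth, overlapped between the groups at 11.8, 10.2 and 11.1 TPM in K382Q and 12.4, 11.97 and 11.2 TPM in K382R. Its log2 difference was -0.10, with a 95% interval from -0.27 to 0.08 (adjusted p = 0.344, limma).

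Fgf1 (ENSMUSG00000036585.17, chr18:38971726-39062525, minus strand), a paracrine FGF that is a PPARγ target in adipose tissue, was at 0.688, 1.38 and 1.41 TPM in K382Q and at 0.0529, 0.213 and 0.0665 TPM in K382R. It passed the expression threshold only through the K382Q libraries, and the coverage behind it was between 0.118 and 0.176 there and between 0.0111 and 0.0442 in K382R. The log2 difference was 1.42 (standard error 0.25, adjusted p = 0.00245, limma). With scaled coverage in place of TPM it was 0.22 (adjusted p = 0.0669, limma) and the call was lost. The 0.5 added before the log was larger than the Fgf1 coverage in every library, so it shrank that difference. The coverage itself did not overlap between the groups. Fgf2 (ENSMUSG00000037225.14, chr3:37402495-37464257, plus strand), which encodes basic FGF, was at 5.63, 3.70 and 5.69 TPM in K382Q and at 3.73, 5.48 and 3.72 TPM in K382R. The groups overlapped fully, and the 95% interval of the log2 difference ran from -0.27 to 0.65 (adjusted p = 0.461, limma). Fgf2 overlaps the antisense gene Nudt6, which was at 11.9 to 14.3 TPM, and whether the counting used strand is not given in the sources used here.

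The FGF receptor genes went in different directions. Fgfr1, Fgfr3 and Fgfrl1 were lower in K382Q, Fgfr2 was higher, and Klb did not pass the test. Fgfr4 was below the threshold, at no more than 0.0915 TPM.

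Fgfr1 (ENSMUSG00000031565.19, chr8:26003670-26065734, plus strand), the main FGF receptor of adipose cells and the partner of Klb, was at 44.7, 47.9 and 45.6 TPM in K382Q and at 72.0, 69.1 and 73.1 TPM in K382R. The groups were well separated, with the K382R mean 1.55 times the K382Q mean (log2 difference -0.63, standard error 0.04, adjusted p = 1.72e-05, limma). Fgfrl1 (ENSMUSG00000008090.15, chr5:108840248-108854790, plus strand), an FGF receptor that lacks the kinase domain, was the most abundant receptor gene, at 195, 191 and 182 TPM in K382Q and 230, 235 and 226 TPM in K382R. Its groups did not overlap, although the difference was small (log2 difference -0.28, standard error 0.03, adjusted p = 0.00036, limma), and with median-ratio scaling it was -0.13 (adjusted p = 0.017). Fgfr3 (ENSMUSG00000054252.19, chr5:33879018-33894412, plus strand) was at 1.61, 1.56 and 1.48 TPM in K382Q and at 2.33, 2.25 and 2.78 TPM in K382R. Every K382R library was higher (log2 difference -0.52, standard error 0.13, adjusted p = 0.0114, limma).

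Fgfr2 (ENSMUSG00000030849.19, minus strand) was at 6.43, 7.37 and 6.45 TPM in K382Q and at 2.71, 2.29 and 3.97 TPM in K382R. Every K382Q library was above every K382R library, and the ratio of means was 2.25 (log2 difference 1.08, standard error 0.17, adjusted p = 0.00141, limma). The fold change fell to 2 or less without K382R replicate 2 (log2 difference 0.93), with a pseudocount of 1 (0.98), with scaled coverage (0.92) and with FPKM (0.997). Fgfr2 was given the span chr7:129764181-132725079, which takes in other genes on the same strand. Among them were Ate1 at 24.4 to 28.5 TPM and Oat at 99.6 to 133 TPM. Whether reads of such genes were counted with Fgfr2 was not tested.

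Klb (ENSMUSG00000029195.11, chr5:65505657-65541350, plus strand), which encodes β-Klotho, was at 8.38, 9.15 and 8.07 TPM in K382Q and at 9.30, 7.56 and 7.93 TPM in K382R. The groups overlapped, with a 95% interval of the log2 difference from -0.17 to 0.27 (adjusted p = 0.715, limma). Fgfr1op2 also overlapped, at 72.0 to 74.7 TPM in K382Q and 67.9 to 76.2 TPM in K382R, and was called higher with median-ratio scaling (log2 difference 0.17, adjusted p = 0.019, limma).

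Of 16 FGF co-factors and adaptors, 11 were tested, 2 were higher in K382Q (18.2%, against 11.1% of all genes) and 7 lower (63.6%, against 36.9%), with a median log2 difference of -0.42. The syndecans, heparan sulfate carriers of the cell surface, split: Sdc1 was at 54.3, 55.6 and 53.1 TPM in K382Q and at 109, 106 and 112 TPM in K382R (log2 difference -0.997, adjusted p = 1.1e-06, limma), Sdc2 was lower (log2 difference -0.59), and Sdc4 (log2 difference 0.41) and Sdc3 (log2 difference 0.28) were higher. Kl, the co-receptor of other endocrine FGFs, was close to 0.

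A list of 13 feedback and response genes of the ERK pathway, which FGF receptors and many other receptors activate, had 11 tested genes. None was called higher and 8 were lower in K382Q (72.7% of those tested, against 36.9% of all genes), with a median of -0.42 against -0.14 over all genes. Egr1, an immediate early transcription factor, was at 11.3, 13.02 and 10.4 TPM in K382Q and at 24.9, 25.8 and 25.2 TPM in K382R (log2 difference -1.10, adjusted p = 2.92e-05, limma). Spry4, a feedback inhibitor of receptor tyrosine kinases, differed by -0.69 on the log2 scale and Etv4, an ETS factor induced by FGF signals, by -0.98. With quantile normalization 5 of the 8 kept a call.

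**Figure D3:**
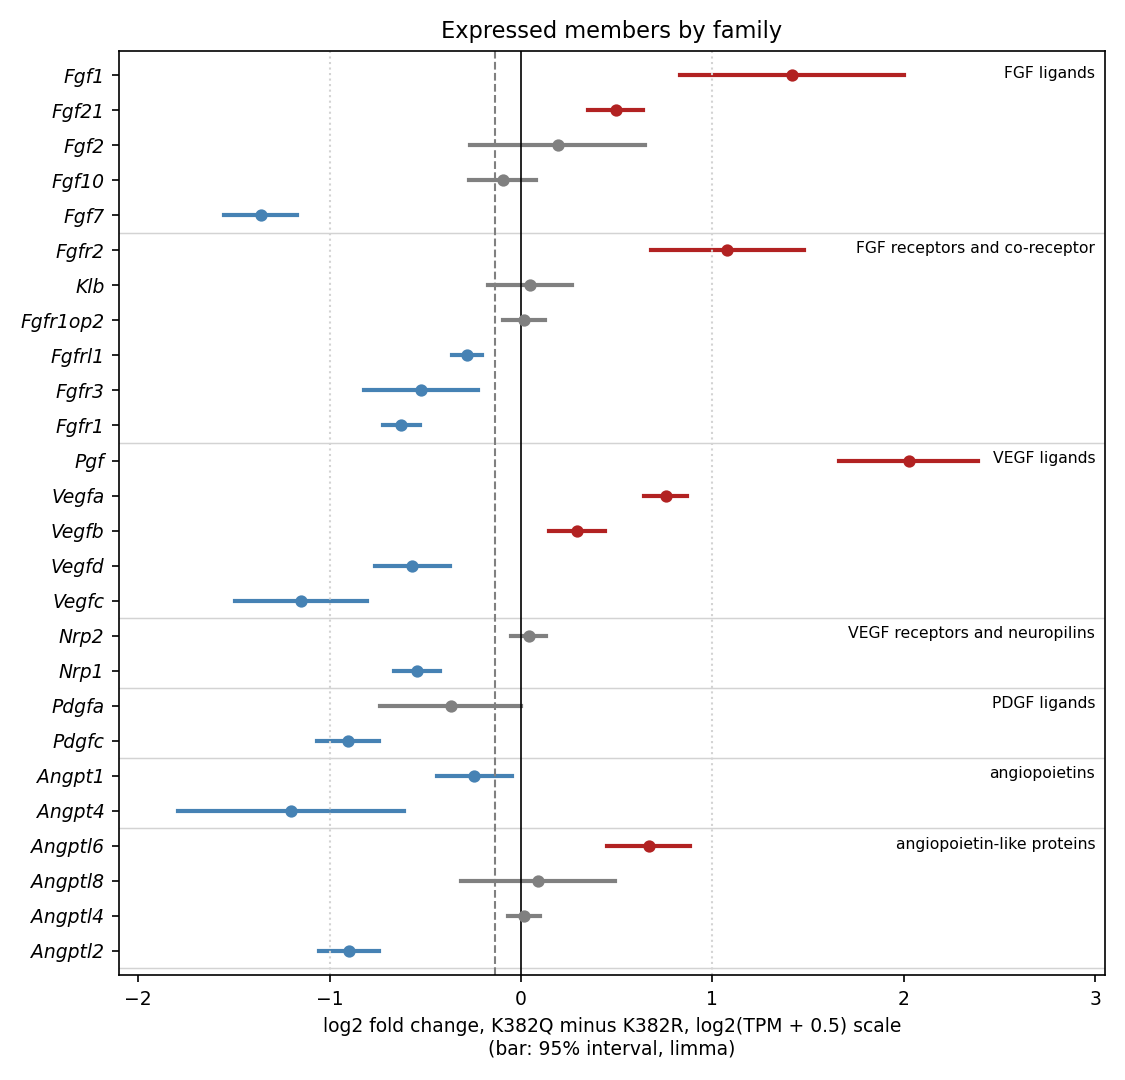
Log2 difference in log2(TPM + 0.5), K382Q minus K382R, of each expressed member with its 95% interval (limma), grouped by family, in red where called higher, blue where called lower and grey where not called. The dashed line is the median of all genes tested, -0.14. In this fit Pgf lies highest at 2.03 and Fgf7 lowest at -1.36, and the intervals of Klb, Nrp2 and Angptl4 span 0.

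Among 4 PDGF ligands, Pdgfa and Pdgfc were expressed, and both had lower means in K382Q. Pdgfc (ENSMUSG00000028019.10, chr3:80943723-81121347, plus strand), a ligand of PDGFRα that is cleaved to become active, was at 7.73, 8.13 and 8.81 TPM in K382Q and at 16.4, 15.1 and 16.0 TPM in K382R. The groups were far apart (log2 difference -0.90, standard error 0.07, adjusted p = 3.73e-05, limma), with the K382R mean 1.92 times the K382Q mean. Pdgfa (ENSMUSG00000025856.16, chr5:138961769-138983125, minus strand), also a PDGFRα ligand, was at 11.2, 16.4 and 10.4 TPM in K382Q and at 16.1, 17.5 and 14.9 TPM in K382R. Replicate 2 of K382Q lay within the K382R range, and the log2 difference of -0.37 (95% interval -0.73 to 0.00) did not pass (adjusted p = 0.0925, limma). Without that library it was -0.56 (adjusted p = 0.00241, limma).

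A list of 8 genes held PDGF receptors and processing proteases, with Lrp1 and Sparc beside them. All 8 were called lower in K382Q, against 36.9% of all genes tested, with a median of -0.82 against -0.14. Pdgfra, a marker of adipose progenitors, was at 4.89, 5.16 and 4.76 TPM in K382Q and at 8.60, 9.88 and 10.1 TPM in K382R (log2 difference -0.88, adjusted p = 0.000122, limma). Pdgfrb, found on perivascular cells and progenitors, averaged 5.07 and 8.85 TPM (log2 difference -0.75, adjusted p = 0.000953, limma). Plat, the tissue plasminogen activator that cleaves PDGF-C, averaged 5.24 and 13.6 TPM (log2 difference -1.31, adjusted p = 6.52e-05, limma), and Plau, the urokinase that cleaves PDGF-D, averaged 2.49 and 8.25 TPM (log2 difference -1.56, adjusted p = 1.74e-05, limma). Of 8 markers of mural cells, which surround capillaries, 4 were expressed. Their summed level was between 27.97 and 31.7 TPM in K382Q and between 7.93 and 9.21 TPM in K382R, most of it Ndufa4l2, which was called higher (log2 difference 3.42), while Trpc6 was called lower (log2 difference -0.77) and Notch3 and Cspg4 were not called. The 4 tested progenitor markers given above were lower in K382Q, and the part of both lists in these values was not tested.

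**Figure D4:**
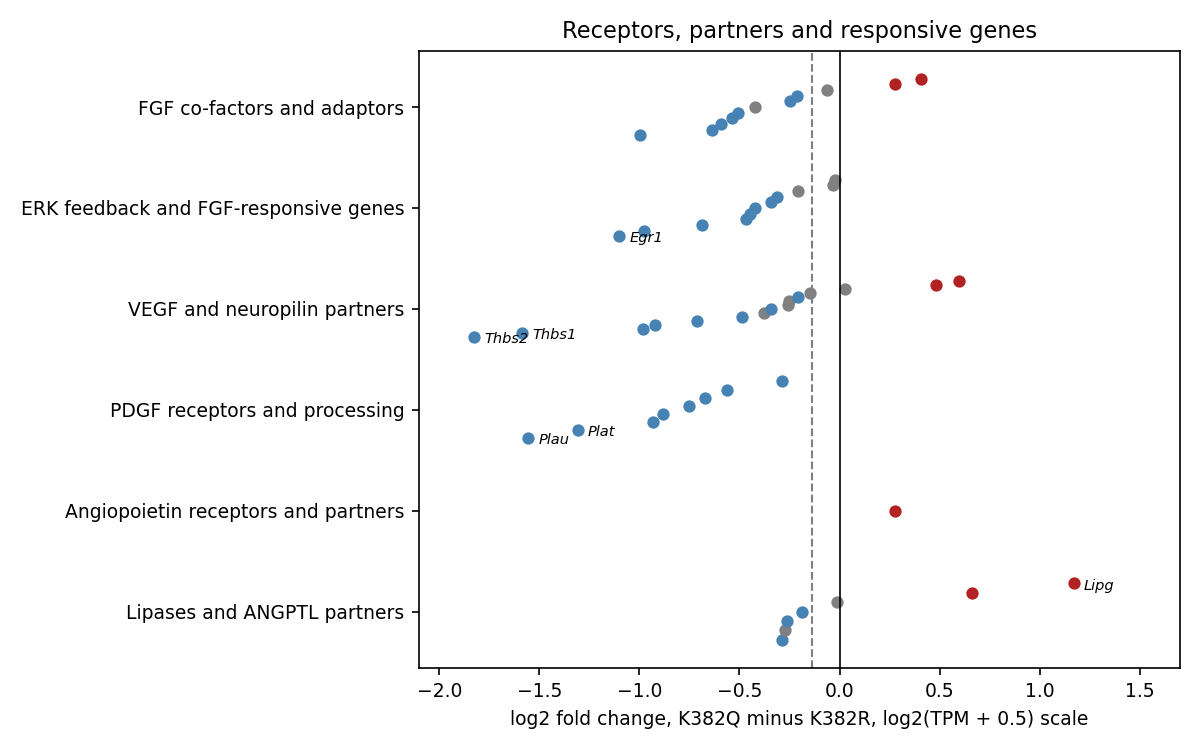
Log2 difference, K382Q minus K382R, of every tested gene in the lists of co-factors, receptors, partners and response genes, with genes called higher in red, called lower in blue, not called in grey, those beyond 1 in size named, and a dashed line at the median of all genes tested. All 8 genes of the PDGF receptor and processing list lie below 0, and Thbs2 lies lowest at -1.83.

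Of the 3 angiopoietins, Angpt1 and Angpt4 were expressed and were called lower in K382Q. Angpt1 (ENSMUSG00000022309.10, chr15:42288119-42540373, minus strand), the Tie2 agonist that stabilizes vessels, was at 6.35, 6.04 and 5.63 TPM in K382Q and at 6.74, 7.25 and 7.64 TPM in K382R. The groups nearly met, and the call (log2 difference -0.24, standard error 0.09, adjusted p = 0.0451, limma) was lost under 10 of the 17 alternative settings, among them median-ratio scaling, where the difference was -0.10 (adjusted p = 0.354, limma), and leaving out each of 4 libraries in turn. Angpt4 (ENSMUSG00000027460.8, chr2:151753130-151787257, plus strand), another Tie2 ligand, was at 0, 0.0776 and 0.266 TPM in K382Q and at 0.679, 0.808 and 1.25 TPM in K382R. It passed the threshold only through K382R, and its log2 difference was -1.20 (standard error 0.25, adjusted p = 0.00575, limma), with a range from -2.40 to -0.64 over the alternative settings. Angpt2, the context-dependent antagonist, stayed below the threshold with overlapping groups and at most 0.598 TPM. The receptor genes Tek and Tie1 were at no more than 0.0898 and 0.059 TPM, and Svep1, a matrix protein that binds Tie1, was higher in K382Q (log2 difference 0.28, adjusted p = 0.0183, limma), a call that was lost in 4 of the 6 fits that left out a library.

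The ANGPTL family held the most abundant member. Angptl4 (ENSMUSG00000002289.17, chr17:33992724-34000804, minus strand), which inactivates lipoprotein lipase, ranked 81st of 15426 genes by mean TPM. It was at 1371, 1488 and 1387 TPM in K382Q and at 1397, 1412 and 1390.4 TPM in K382R. The groups overlapped, with the highest and the lowest value both in K382Q, and the log2 difference was 0.02 (95% interval -0.07 to 0.10, adjusted p = 0.767, limma). Scaling decided its call: it was higher with median-ratio scaling (0.17, adjusted p = 0.0173) and lower with quantile normalization (-0.14, adjusted p = 0.0105).

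Angptl6 (ENSMUSG00000038742.8, chr9:20785104-20791023, minus strand), a secreted factor linked to energy expenditure, was higher in K382Q. Its values were 36.5, 41.3 and 34.0 TPM in K382Q and 25.5, 23.7 and 20.7 TPM in K382R, with no overlap and a ratio of means of 1.60 (log2 difference 0.67, standard error 0.09, adjusted p = 0.000696, limma). Angptl2 (ENSMUSG00000004105.9, chr2:33106081-33137729, plus strand), an adipose tissue factor linked to inflammation, went the other way, at 8.37, 9.21 and 8.95 TPM in K382Q and 16.0, 16.9 and 17.9 TPM in K382R. The groups were far apart, with the K382R mean 1.91 times the K382Q mean (log2 difference -0.90, standard error 0.07, adjusted p = 3.37e-05, limma). Angptl2 overlaps the antisense gene Ralgps1, at 3.43 to 5.73 TPM, and Angptl6 the antisense gene Shfl, at 2.43 to 4.56 TPM. Whether reads of these antisense genes were counted with them was not tested. Angptl8 (ENSMUSG00000047822.9, chr9:21746806-21748643, plus strand), a secreted protein induced by insulin, lies within the antisense gene Dock6 and overlapped between the groups at 1.77 to 2.195 TPM in K382Q and 1.46 to 2.39 TPM in K382R (95% interval of the log2 difference -0.31 to 0.49).

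Of 10 lipases and ANGPTL partners, 7 were tested, 2 were higher in K382Q (28.6%, against 11.1% of all genes) and 3 lower (42.9%, against 36.9%). Lpl, the lipase that Angptl4 inactivates, was at 1723, 1654 and 1697 TPM in K382Q and at 1931, 1928 and 1910.1 TPM in K382R (log2 difference -0.18, adjusted p = 0.00107, limma), and over the alternative settings the difference ranged from -0.41 with quantile normalization to -0.03 with median-ratio scaling, where the call was lost (adjusted p = 0.405). Lipg, which encodes endothelial lipase, was at 14.9, 13.3 and 13.1 TPM in K382Q and at 6.26, 5.80 and 5.48 TPM in K382R (log2 difference 1.17, adjusted p = 2.21e-05, limma). Lmf1, needed for the folding of lipases, was also higher (log2 difference 0.66, adjusted p = 0.000209, limma). Gpihbp1, which carries lipoprotein lipase on capillary endothelium, was at no more than 0.144 TPM.

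The remaining 28 matches were below the threshold, and 8 of them were at 0 in every library: Fgf3, Fgf4, Fgf5, Fgf12, Fgf13, Fgf16, Fgf20 and Fgfr3-ps. A fit without the expression filter called Kdr and Pdgfd lower in K382Q. It called 6540 of the 29522 genes tested, in either direction. Kdr was at 0, 0.0327 and 0.0356 TPM in K382Q and at 0.0978, 0.165 and 0.138 TPM in K382R (log2 difference -0.28, adjusted p = 0.0219, limma), and Pdgfd at 0.0889, 0.0637 and 0.133 TPM against 0.235, 0.232 and 0.236 TPM (log2 difference -0.30, adjusted p = 0.0214, limma). Both stood apart between the groups at levels far below the threshold. Fgf9, a ligand of FGFR3 among others, was at 0.197, 0.227 and 0.0853 TPM in K382Q and between 0.0453 and 0.0553 TPM in K382R (adjusted p = 0.089, limma). Flt4, Fgf17 and Pdgfb did not overlap either and were lower in K382Q without passing (adjusted p = 0.0623, 0.0955 and 0.108, limma). For genes below the threshold, the share without overlap was not computed, so these separations have no background beside them. Fgf11, an intracellular FGF homolog, and Fgf18 had the next highest single libraries after Angpt2, at 0.528 and 0.471 TPM.

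The start regions of the expressed members were searched for sequence letters, since the compared proteins are DNA-binding receptors and VEGF genes are textbook targets of hypoxia-inducible factors. The searched motifs were a PPAR response element as a direct repeat, that is 2 copies of AGGTCA with 1 base of any kind between them, and the core of a hypoxia response element, ACGTG, on both strands, in the 250 bases before the canonical GENCODE start on GRCm39. Within these 250 bases, the direct repeat was in no expressed member, with or without 1 mismatch, against 0.363% of 21770 promoters of protein-coding genes when 1 mismatch was allowed. The core ACGTG was in 9 of the 26 promoters, or 34.6%, against 17.0% of all promoters. It was present in those of Pgf, Vegfb, Fgf21 and Fgfr2, which were higher in K382Q, of Nrp1, Vegfd and Fgfrl1, which were lower, and of Fgf2 and Angptl4, which were not called, and absent from that of Vegfa. Farther from the start ACGTG was not searched for, so its absence covers these 250 bases only. Promoters of Pgf, Fgf21, Vegfb and Fgfr2, the higher members with a match, are shown with that of Angptl4, the most abundant member, which did not pass the test. All 5 are on the minus strand of GRCm39. Capitals mark the matched ACGTG letters, which read CACGT on the opposite strand and CACGTG where the matches of both strands overlap. The match in Vegfb, Fgf21 and Fgfr2, and in Fgfrl1, is CACGTG. Whether any of these matches is a hypoxia response element was not tested.
Pgf, chr12:85224565-85224814: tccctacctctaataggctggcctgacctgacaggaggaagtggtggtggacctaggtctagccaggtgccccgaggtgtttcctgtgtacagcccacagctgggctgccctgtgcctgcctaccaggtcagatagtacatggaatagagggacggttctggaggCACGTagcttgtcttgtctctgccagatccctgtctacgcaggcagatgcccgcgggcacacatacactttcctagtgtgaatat
Vegfb, chr19:6965116-6965365: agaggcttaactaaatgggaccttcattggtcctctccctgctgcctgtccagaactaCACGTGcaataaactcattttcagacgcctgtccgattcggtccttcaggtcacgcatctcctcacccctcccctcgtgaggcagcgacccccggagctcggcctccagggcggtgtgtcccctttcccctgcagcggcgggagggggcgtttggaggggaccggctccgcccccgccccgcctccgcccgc
Fgf21, chr7:45264915-45265164: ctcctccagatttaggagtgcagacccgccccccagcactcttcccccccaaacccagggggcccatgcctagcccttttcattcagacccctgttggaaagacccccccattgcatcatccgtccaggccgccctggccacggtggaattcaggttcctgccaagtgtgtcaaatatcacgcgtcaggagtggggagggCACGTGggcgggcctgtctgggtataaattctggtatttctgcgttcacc
Fgfr2, chr7:129868273-129868522: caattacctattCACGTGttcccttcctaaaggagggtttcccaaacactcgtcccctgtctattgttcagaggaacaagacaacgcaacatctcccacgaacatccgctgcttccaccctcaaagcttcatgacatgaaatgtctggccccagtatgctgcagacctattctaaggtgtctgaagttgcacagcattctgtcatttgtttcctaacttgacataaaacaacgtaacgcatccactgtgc
Angptl4, chr17:34000805-34001054: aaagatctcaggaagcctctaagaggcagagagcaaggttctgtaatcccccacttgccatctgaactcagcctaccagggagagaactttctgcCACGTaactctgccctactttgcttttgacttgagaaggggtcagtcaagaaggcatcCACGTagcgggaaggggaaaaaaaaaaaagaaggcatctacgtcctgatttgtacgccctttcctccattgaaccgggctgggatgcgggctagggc

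In a wider window of 5 kb on each side of the start, which was added later, no expressed member held the full direct repeat, and 8 of 26 (30.8%) held it with 1 mismatch, against 18.8% of all genes: Pgf, Vegfa, Fgf21, Angpt4, Angptl8, Fgf10, Klb and Nrp2. Of these, 3 were called higher in K382Q, 1 lower and 4 were not called. The matches of the 4 called genes are shown with the 13 letters of the repeat in capitals and 8 bases on each side, and each substitution counts from 1 at the 5′ end of the repeat. The match in Vegfa carries C12G and lies in an intron 2912 bases after the start, that in Pgf carries A13C and lies in an intron 1243 bases after the start. The match in Angpt4 carries T11A and lies in an intron 1740 bases after the start, and that in Fgf21 carries T11A and lies 4713 bases after the start, outside the gene. Angptl4 held no match, and sites with more than 1 mismatch or outside the window were not searched for. A match is a description of the letters and does not show binding.
Pgf, chr12:85223315-85223327, plus strand: actaggccAGGTCAGAGGTCCtgggggcg
Vegfa, chr17:46340391-46340403, plus strand: cagggccaAGGTCAGAGGTGAcccttctc
Fgf21, chr7:45260195-45260207, minus strand: acatttaaAGGTCAGAGGACAacttggag
Angpt4, chr2:151754864-151754876, plus strand: atgtgtggAGGTCAAAGGACAgctcttgg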

How the data were processed

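RNA was sequenced from 3 K382Q and 3 K382R libraries. Per the labels and the study's methods, the authors trimmed the paired reads, used HISAT2 for alignment (genome GRCm39) and StringTie for gene abundances. The annotation release and the strand setting are not given in the sources used here. The deposited tables give, per library, the read coverage of each gene, which the authors left unscaled for depth, and the FPKM and TPM values, which the authors scaled by gene length and library total. A read count test was not run, because the tables used here hold none. TPM depends on the other genes of a library, so a few very abundant genes can shift all others.

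Rows that shared a gene identifier (at most 5 per library) were summed. The 15426 genes that reached 0.5 TPM in 3 or more libraries were tested with limma 3.58.1 in R 4.3.3 (intensity trend) on log2(TPM + 0.5). P-values were adjusted by the Benjamini-Hochberg method over all of them. The threshold was 0.05, and a DEG had also to change more than 2-fold. Errors are the SD of 3 libraries or the standard error of the fit, and intervals are 95%. Depth was estimated as the highest ratio of coverage to FPKM, between 5.95 and 8.15 gigabases. The fit was tested on simulated data. Every match of the symbol rule was named, and the related lists were taken from general knowledge of the pathways. Members and lists were chosen with earlier results of these data known, so nothing here is independent of them. Alternatives were other pseudocounts, filters, units and scalings, a fit without the trend, array weights, a replicate block and leaving out each library. The coverage-based alternative, the unfiltered values of low members and the 5 kb window were added after the data were seen. Figures were drawn with matplotlib 3.10.9.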

Additional observations from a re-analysis of the deposited data

How the results depend on the processing

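Over the 17 alternative settings, 420 of 440 member values kept their call (higher, lower or not called), and 20 of 26 expressed members did so in every setting. The exceptions were Fgf1, Fgfr1op2, Nrp2, Pdgfa, Angpt1 and Angptl4. Of the 8 members that did not pass the test, Fgf10, Fgf2, Klb, Fgfr1op2, Angptl4 and Angptl8 changed sign in some setting. Median-ratio scaling called 3057 genes higher and 3153 lower in K382Q, and quantile normalization 2954 and 3241, in place of 1717 and 5698. FPKM gave 379 DEGs over all genes in place of 599, a pseudocount of 1 gave 443 and a pseudocount of 0.1 gave 889. Among the members, 2 DEGs were left with a pseudocount of 1 and 2 with FPKM, Fgf7 and Pgf in both cases, in place of 6. Of VEGF receptors and neuropilins, 2 were called in place of 1 with FPKM and under both scalings. Of the angiopoietins, 1 was called in place of 2 with no filter, FPKM, scaled coverage, both scalings and the replicate block. The same held with a filter at a TPM of 1, where Angpt4 was not among the genes tested. When a library was left out, 1 to 2 were called. Of the PDGF ligands, 1 to 2 were called when a library was left out. Quantile normalization called 5 of the ERK response genes in place of 8, and the lipase list had 2 called genes with median-ratio scaling and 3 with quantile normalization in place of 5. The angiopoietin receptor list had 0 to 1 when a library was left out. Apart from the gene that the filter removed, why these values moved was not tested.

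Replicate numbers did not pair the libraries: deviations of same-numbered libraries correlated at -0.0177, 0.0507 and 0.0223. With a replicate block, 6987 genes were called in place of 7415, and 2 PDGF ligands in place of 1, since Pdgfa passed (adjusted p = 0.0288, limma).

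The tables hold no read counts, so the counting error of genes near or below 0.5 TPM, such as Fgf1 and Pgf in K382R, was not computed.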
